A study of Mus musculus with 8 samples.

Results

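Genes of cholesterol and fatty acid synthesis, most of them targets of the SREBP transcription factors, were followed in mouse monocytes and in the progenitors that give rise to them. The 35 genes are a named list that was matched by symbol to a table of 13388 gene identifiers, and all 35 were found. They fall into 5 regulators of the pathway, 2 sterol transport genes, 18 sterol synthesis genes and 10 fatty acid synthesis genes. RNA was sequenced from common monocyte progenitors (cMoPs, dividing precursors committed to the monocyte lineage) and from Ly6C+ classical monocytes, both sorted from wild-type bone marrow. The groups were cMoPs on OP9-DLL1, cMoPs on OP9, monocytes on OP9-DLL1 and monocytes on OP9, each with 2 libraries and 6 h of coculture. OP9 is a stromal cell line of mouse origin, and OP9-DLL1 is its derivative that displays Delta-like 1 (DLL1), a ligand of Notch receptors. The comparisons ask what the ligand-bearing stroma changes in each cell type and how the cell types differ on each stroma.

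SREBPs are made as precursors held in the endoplasmic reticulum by SCAP, a sterol sensor, and by INSIG proteins. When membrane cholesterol is low, SCAP carries the precursor to the Golgi, where proteases release the part that enters the nucleus and switches on sterol and fatty acid genes. SREBP-2, the product of Srebf2, mainly drives cholesterol synthesis and uptake, and SREBP-1c, a product of Srebf1, mainly drives fatty acid synthesis. In macrophages the pathway balances membrane supply against cholesterol efflux, which is run by the oxysterol receptors LXR.

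The libraries held 47316323 to 62459962 reads on the genes of the table, so that 1 read was worth 0.0151 to 0.0231 CPM, the unit of reads after scaling to equal library sizes. Between the replicates of monocytes on OP9, 1445 genes differed by over 2-fold, and within each other group 724 to 804 did. Whether replicates came from separate animals or cultures is not told by the labels, and a p-value here reflects only the spread of these libraries, which may be technical. The 6 cMoP markers in the table (of 7 listed), among them the granule protease gene Elane, summed to 14500 to 21800 CPM in cMoPs and to 155 to 280 CPM in monocytes. The 7 monocyte markers summed to 2680 to 3310 CPM in cMoPs and to 3950 to 4890 CPM in monocytes, and of these Ly6c2 was higher in cMoPs. Of 5 neutrophil markers 4 were in the table and summed to 373 to 669 CPM over the 8 libraries, 1 of 4 dendritic cell markers to 0.246 to 1.11 CPM, and of 4 adipocyte and 4 erythroid markers none was in the table. In bulk RNA, fewer cells of a type and less RNA per cell cannot be told apart.

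The promoters of the genes on which the stroma comparison turns are shown from RefSeq (GRCm38.p6), 250 bases before to 50 after the annotated start, on the strand of the gene. Of the 35 genes, 27 had an entry in that promoter table, with 36 promoters among them, and Fdft1 had none. Hmgcs1 (chr13:119690101-119690400, plus strand) is shown because it was the only one of the 27 whose promoter held the sterol regulatory element searched for. Mvd (chr8:122443373-122443672, minus strand), Acat2 (chr17:12960676-12960975, minus strand) and Fads2 (chr19:10101454-10101753, minus strand) are shown because they passed the test in monocytes. Capitals mark a match, on either strand, to TCACNCCAC (sterol regulatory element), CCAAT (NF-Y), GGGCGG (Sp1) or CACGTG (E-box).
Hmgcs1: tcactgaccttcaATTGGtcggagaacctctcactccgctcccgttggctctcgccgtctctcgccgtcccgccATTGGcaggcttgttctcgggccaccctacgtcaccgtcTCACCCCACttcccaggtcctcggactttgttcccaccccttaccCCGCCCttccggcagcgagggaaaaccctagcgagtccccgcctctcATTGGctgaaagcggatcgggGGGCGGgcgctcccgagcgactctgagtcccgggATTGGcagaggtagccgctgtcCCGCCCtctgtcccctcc
Mvd: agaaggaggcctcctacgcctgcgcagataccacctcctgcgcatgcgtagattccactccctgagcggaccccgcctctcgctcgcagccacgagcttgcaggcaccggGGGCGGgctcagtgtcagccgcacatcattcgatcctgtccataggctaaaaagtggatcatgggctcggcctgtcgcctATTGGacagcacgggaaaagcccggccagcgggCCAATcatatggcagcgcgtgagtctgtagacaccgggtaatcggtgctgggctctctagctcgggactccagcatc
Acat2: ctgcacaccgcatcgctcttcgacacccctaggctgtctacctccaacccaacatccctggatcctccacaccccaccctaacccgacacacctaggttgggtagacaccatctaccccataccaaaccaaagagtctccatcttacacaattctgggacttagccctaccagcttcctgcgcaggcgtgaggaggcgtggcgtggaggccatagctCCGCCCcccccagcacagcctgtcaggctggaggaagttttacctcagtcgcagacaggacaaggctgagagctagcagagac
Fads2: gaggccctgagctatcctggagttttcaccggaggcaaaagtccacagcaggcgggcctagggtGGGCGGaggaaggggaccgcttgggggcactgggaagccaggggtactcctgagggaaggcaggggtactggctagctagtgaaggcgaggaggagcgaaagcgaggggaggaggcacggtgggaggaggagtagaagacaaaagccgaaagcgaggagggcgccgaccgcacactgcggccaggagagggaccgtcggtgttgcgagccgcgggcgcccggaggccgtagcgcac

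The single TCACNCCAC match lay with its first base 137 bases before the start of Hmgcs1, and 1.24% of all 32851 promoters in the table held such a match. Hmgcs1 also had 4 CCAAT and 3 GGGCGG matches, Mvd had 2 CCAAT matches and 1 GGGCGG match, and Acat2 and Fads2 had 1 GGGCGG match each. CCAAT was found in 14 of 18 promoters of the sterol synthesis genes (77.8%), in 4 of 8 promoters of the fatty acid genes (50.0%) and in 37.4% of all promoters. GGGCGG was found in 15 of 18 sterol promoters (83.3%), in 4 of 8 fatty acid promoters (50.0%) and in 35.7% of all promoters. CACGTG was found in 7 of the 36 promoters (19.4%) and in 7.15% of all. No 2 matches overlapped in the promoters shown. In the 36, the only overlap between different motifs was of a CCAAT with a GGGCGG in the promoter of Elovl1. In the promoter of Fasn, 2 CCAAT matches on opposite strands overlapped. These matches describe letters in a window and are not shown to be binding sites.

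**Figure D1:**
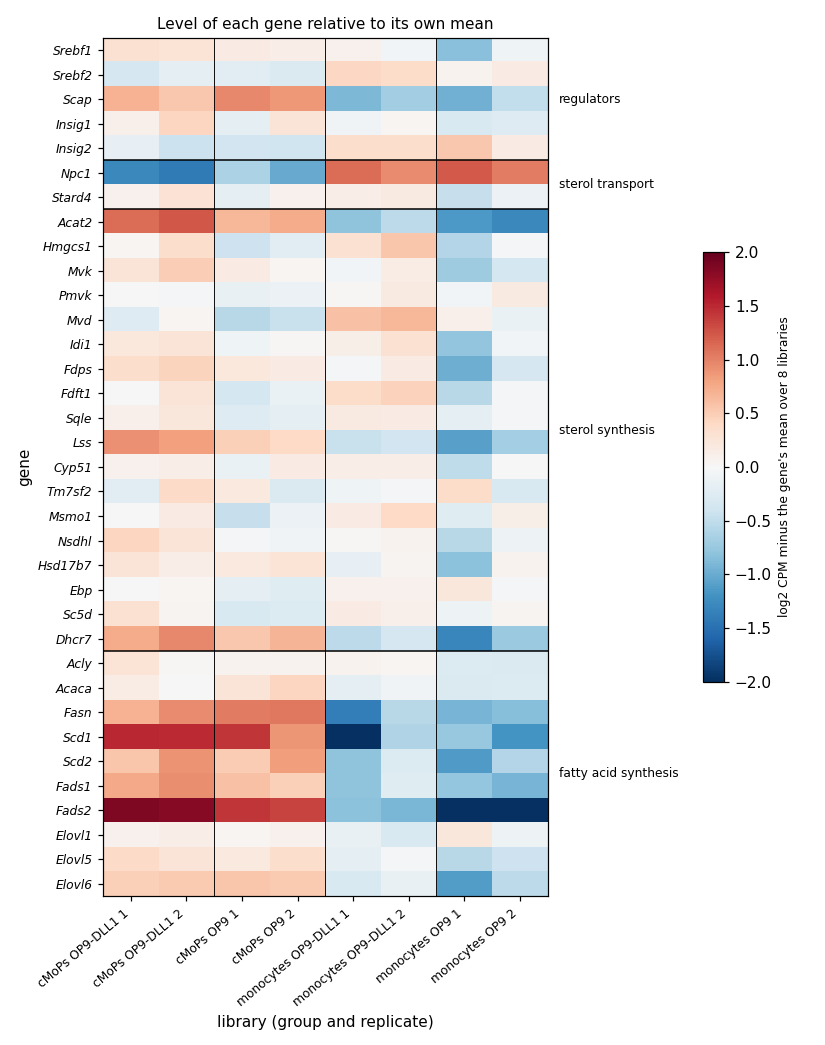
Each row is a gene and each column a library, and colour gives log2 CPM minus the mean of that gene over the 8 libraries, with the scale ending at 2 in both directions. The fatty acid genes divide the cMoP columns from the monocyte columns, and the bluest sterol cells, those of Dhcr7, Acat2 and Lss, stand in the columns of monocytes on OP9.

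Per kilobase of exon, levels spanned a wide range among these genes. Elovl1, which elongates long saturated fatty acids, stood highest, at 217 CPM per kb in cMoPs on OP9-DLL1, 210 in cMoPs on OP9, 172 in monocytes on OP9-DLL1 and 212 in monocytes on OP9. Ebp, a sterol isomerase, followed in monocytes on OP9-DLL1 at 130 CPM per kb and in monocytes on OP9 at 133. Scd1, a stearoyl-CoA desaturase, was lowest in every group, at 0.281 CPM per kb in cMoPs on OP9-DLL1, 0.226 in cMoPs on OP9, 0.038 in monocytes on OP9-DLL1 and 0.0492 in monocytes on OP9. Its paralog Scd2 carried most of the desaturase reads, at 15.5, 14.9, 6.55 and 5.23 CPM per kb in the same groups, and reads shared between the paralogs would make both values uncertain.

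In monocytes, 3 of the 18 sterol synthesis genes and 1 of the 10 fatty acid genes rose on OP9-DLL1, and none of the 35 fell. Without adjustment, 17 were higher and 1 was lower at p under 0.05, against 11.2% and 10.6% of all genes tested. In voom, a fit weighted by read depth, 4 rose and 0 fell, where 988 of all genes tested passed in either direction. A gene is said to have risen or fallen where the Benjamini-Hochberg adjusted p of limma's moderated test was under 0.05, over all 13374 genes tested. Of all genes tested, 3.36% rose and 3.03% fell in this comparison. With libraries centred on their medians, the share of calls that were higher was 39.8% of all calls, against 52.6% as deposited, and 1 of the 35 genes then rose. The genes that rose were Mvd, Fdft1, Acat2 and Fads2.

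Mvd encodes mevalonate diphosphate decarboxylase, which makes the first isoprene unit (chromosome 8, 122433601 to 122443422). It stood at 216 and 227 CPM in monocytes on OP9-DLL1, against 154 and 131 CPM on OP9. Both OP9-DLL1 libraries lay above both OP9 libraries, and the log2 fold change was 0.64 ± 0.14 (SE, limma adjusted p = 0.027). Fdft1 encodes squalene synthase, the first enzyme committed to sterols (chromosome 14, 63145150 to 63179578). It stood at 172 and 182 CPM on OP9-DLL1, against 90.8 and 129 CPM on OP9, without overlap (0.71 ± 0.18, limma adjusted p = 0.046). Fdft1 shares 774 exonic bases with Ctsb on the other strand. The library kit does not mark strand, so that reads from those bases could belong to either gene, and Ctsb differed by a log2 of -0.07 ± 0.34 in the same comparison.

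Acat2 encodes the cytosolic thiolase that joins acetyl-CoA units at the start of the pathway (chromosome 17, 12942890 to 12960747). It stood at 50.6 and 61.5 CPM on OP9-DLL1, against 40.1 and 36.2 CPM on OP9, without overlap (0.55 ± 0.13, limma adjusted p = 0.044). Fads2, the delta-6 desaturase of polyunsaturated fatty acid synthesis (chromosome 19, 10062765 to 10101746), had the highest fold change of the 35. It stood at 6.03 and 5.69 CPM on OP9-DLL1, against 1.59 and 2.64 CPM on OP9, a ratio of means of 2.77 (log2 1.51 ± 0.24, limma adjusted p = 0.0078). Each of the 4 calls was lost when either OP9-DLL1 monocyte library was left out, and the highest adjusted p over all left-out libraries was 0.29 for Acat2, 0.25 for Fdft1, 0.19 for Mvd and 0.059 for Fads2. Acat2 and Fdft1 were also lost without any 1 cMoP library, and Mvd without either cMoP library on OP9. Without monocyte OP9 replicate 1, Fdft1 had a log2 fold change of 0.46 and did not pass. In the authors' deposited table, Mvd alone of the 35 passed in monocytes.

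Of the 18 sterol synthesis genes, 16 had a higher mean on OP9-DLL1 in monocytes and 14 had both OP9-DLL1 libraries above both OP9 libraries, which held for 24.2% of all genes tested. Their median log2 fold change was 0.43, against 0.01 over all genes, of which 51.5% were positive. The 7 genes of the early mevalonate steps had a median of 0.63 and were all positive, and the 11 genes from squalene onwards had a median of 0.34 with 9 positive. Hmgcs1, the cytosolic HMG-CoA synthase, stood at 54.3 and 64.6 CPM on OP9-DLL1, against 29.2 and 42.9 CPM on OP9, without overlap, but did not pass (0.74 ± 0.20, limma adjusted p = 0.066). Sqle, the squalene epoxidase that controls flux late in the pathway, stood at 96.3 and 95 CPM against 74.4 and 83.6 CPM, again without overlap (0.28 ± 0.12, limma adjusted p = 0.21).

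Among the other early genes that did not pass, the log2 fold changes were 0.58 ± 0.16 for Mvk (mevalonate kinase), 0.63 ± 0.22 for Idi1 (isopentenyl diphosphate isomerase) and 0.71 ± 0.22 for Fdps (farnesyl diphosphate synthase), all without overlap. Pmvk, which adds the next phosphate after Mvk, differed by 0.04 ± 0.12, with a 95% interval of -0.24 to 0.31. Late in the pathway, Lss (lanosterol synthase) differed by 0.47 ± 0.16 and Dhcr7, the last step to cholesterol, by 0.60 ± 0.20. Ebp differed by -0.02 ± 0.11 and Tm7sf2, a sterol reductase, by -0.10 ± 0.31, and these were the 2 sterol genes with a lower mean. The remaining late genes, Cyp51, Msmo1, Nsdhl, Hsd17b7 and Sc5d, lay between 0.15 and 0.38. Cyp51 shares 166 exonic bases with Akap9 on the other strand, which differed by 0.70 ± 0.19, and Tm7sf2 shares 532 with Vps51.

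None of the regulators or transport genes passed in monocytes, where 0 passed by voom. At p under 0.05 without adjustment, 1 of the 5 regulators and 1 of the 2 transport genes were higher, against 11.2% of all genes. Srebf2 stood at 79.0 and 76.5 CPM on OP9-DLL1, against 61.8 and 66.2 CPM on OP9, without overlap (0.28 ± 0.12, limma adjusted p = 0.22). Srebf1 stood at 17.5 and 15.8 CPM, against 9.17 and 15.6 CPM, where OP9 replicate 1 was the low library and replicate 2 nearly reached the OP9-DLL1 values (0.48 ± 0.23, limma adjusted p = 0.27). Insig1, itself a sterol-responsive target, stood at 25.1 and 27.0 CPM, against 21.4 and 22.2 CPM. Scap, at 3.94 and 4.52 CPM against 3.76 and 5.19 CPM, and Insig2, at 33.1 and 33.2 CPM against 37.9 and 29.2 CPM, overlapped between the stromas. Of the transport genes, Stard4, a cytosolic sterol carrier, stood at 59.2 and 61.1 CPM against 39.1 and 49.6 CPM (0.45 ± 0.16, limma adjusted p = 0.14). Npc1, which exports cholesterol from lysosomes, stood at 22.3 and 19.8 CPM against 24.1 and 20.9 CPM, and its groups overlapped.

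Of the 10 fatty acid genes, 5 had both OP9-DLL1 monocyte libraries above both OP9 libraries and 1 had both below. Of all 13374 genes tested, 3243 had both above and 3144 both below. The median log2 fold change of the 10 was 0.33. Acly, which supplies cytosolic acetyl-CoA, stood at 102 and 100 CPM on OP9-DLL1 and at 79.7 and 79.1 CPM on OP9 (0.34 ± 0.12, limma adjusted p = 0.13). Acaca, the acetyl-CoA carboxylase that commits carbon to fatty acids, stood at 9.57 and 10.4 CPM, against 8.91 and 9.09 CPM (0.15 ± 0.17). Fasn, the fatty acid synthase, stood at 15.7 and 27.9 CPM, against 21.5 and 22.5 CPM, so that its 2 OP9-DLL1 libraries lay on either side of the OP9 libraries. Scd2 stood at 29.2 and 42.3 CPM against 23.3 and 33.8 CPM, with overlap. Elovl6, which elongates palmitate, differed by 0.59 ± 0.18 (limma adjusted p = 0.091), Elovl5 by 0.38 ± 0.13, and Elovl1 lay lower by -0.29 ± 0.13 (limma adjusted p = 0.22). Fads1, the delta-5 desaturase that acts after Fads2, differed by 0.33 ± 0.21 with overlap. Scd1 had 3 and 16 reads on OP9-DLL1 and 12 and 11 reads on OP9, too few to show a difference at this depth.

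The size of the monocyte response rested on the OP9 libraries, which differed from each other. On the mean over the 18 sterol genes of log2 CPM minus the 8-library mean of each gene, monocytes on OP9-DLL1 stood at 0.00 and 0.12 and monocytes on OP9 at -0.50 (replicate 1) and -0.21 (replicate 2). Without OP9 replicate 1 the median log2 fold change of the sterol genes was 0.25, and without OP9 replicate 2 it was 0.62. The 7 cycling markers, such as Mki67 and Top2a, summed to 871 and 908 CPM on OP9-DLL1 and to 514 (replicate 1) and 1100 CPM (replicate 2) on OP9. Of 15 stromal markers 6 were in the table, and their summed level in monocytes was 4.80 and 19.5 CPM on OP9-DLL1, against 24.8 and 27.2 CPM on OP9. All 6 had reads in these 4 libraries, with the collagen gene Col1a1 at 0.0616 and 0.912 CPM on OP9-DLL1 against 1.43 and 1.84 CPM on OP9. Of the 6, 5 had both OP9-DLL1 libraries below both OP9 libraries, as did 3144 of the 13374 genes tested, and none of the 5 passed. The other, the growth factor receptor gene Pdgfrb, was higher, at 2.89 and 4.23 CPM on OP9-DLL1 against 0.0231 and 0.205 CPM on OP9 (log2 5.35 ± 0.93, limma adjusted p = 0.012). Pdgfrb reached the 1 CPM required for testing in no other library, so it entered the test only through the group where it was high. Its call was lost without either OP9-DLL1 monocyte library. Of the 7 monocyte markers Csf1r rose (0.75 ± 0.12) and 3 fell, among them Itgam (-0.73 ± 0.17) and Fcgr1 (-1.62 ± 0.25), and of the 6 cMoP markers Ms4a3 rose (2.24 ± 0.24). Of all genes 3.36% rose and 3.03% fell. Csf1r and Itgam did not pass when either OP9-DLL1 monocyte library was left out, nor did Fcgr1 when replicate 2 of these was. Itgam also lost its call without either cMoP library on OP9. The part of the cycling, stromal and identity markers in the result was not tested.

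**Figure D2:**
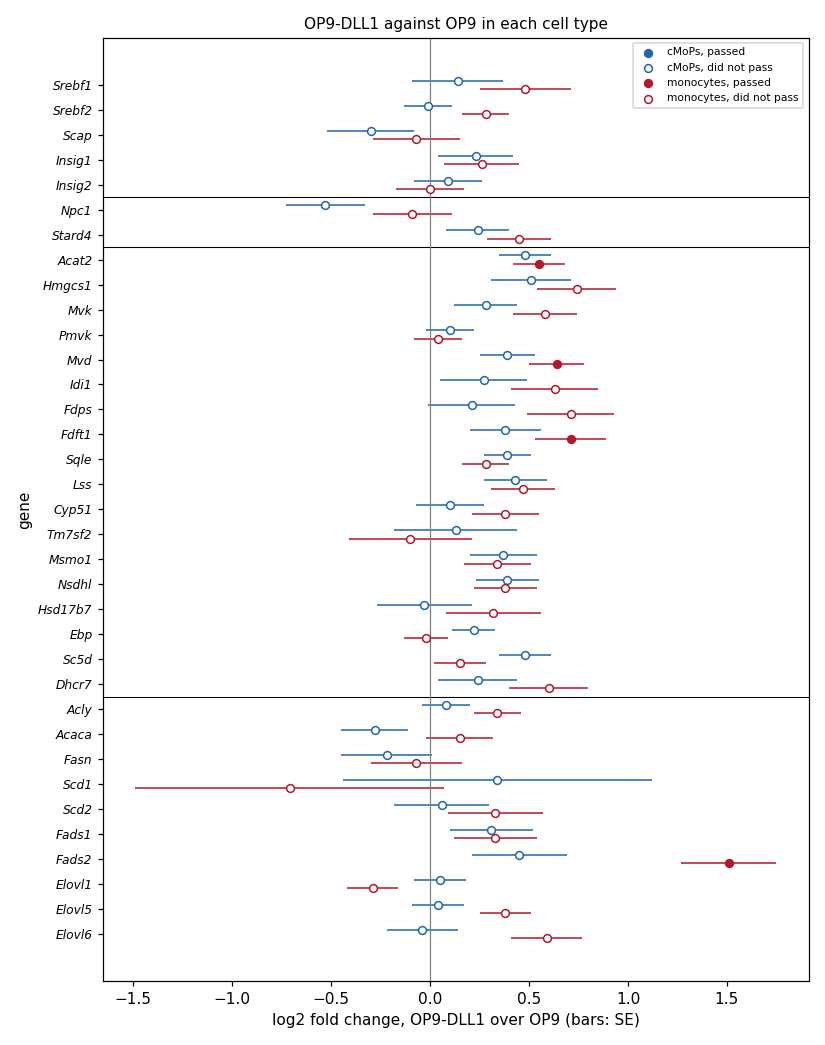
Points are log2 fold changes of OP9-DLL1 over OP9 with SE bars for each gene, in cMoPs (blue, upper) and monocytes (red, lower), filled where the limma adjusted p was under 0.05. Sterol genes lie mostly right of 0 in both cell types, and the filled points are Acat2, Mvd, Fdft1 and Fads2 in monocytes.

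In cMoPs none of the 35 genes passed on OP9-DLL1 against OP9, where 0.464% of all genes rose and 0.307% fell. At an unadjusted p under 0.05, 7 of the 18 sterol synthesis genes were higher and 0 lower, and 0 of the 10 fatty acid genes were either, against 5.24% of all genes higher and 4.23% lower. By voom 0 of the 35 passed as well, and by voom with library quality weights 2 did. The authors' deposited table called 2, Acat2 (adjusted p = 0.036) and Sc5d (adjusted p = 0.044). Of the 18 sterol genes 17 had a higher mean on OP9-DLL1, and 15 had both OP9-DLL1 libraries above both OP9 libraries, against 25.0% of all genes tested. Their median log2 fold change was 0.32, against 0.01 over all genes.

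Acat2 stood at 193 and 210 CPM in cMoPs on OP9-DLL1, against 141 and 148 CPM on OP9, without overlap (0.48 ± 0.13, limma adjusted p = 0.21). Sc5d, the sterol C5 desaturase, stood at 121 and 102 CPM, against 78.6 and 80.5 CPM, without overlap (0.48 ± 0.13, limma adjusted p = 0.18). Hmgcs1 had the highest fold change of the sterol genes, at 45.0 and 55.7 CPM against 32.9 and 37.8 CPM (0.51 ± 0.20, limma adjusted p = 0.46). Mvd stood at 120 and 148 CPM against 97.9 and 105 CPM (0.39 ± 0.14), Sqle at 91.7 and 99.9 CPM against 71.1 and 75.2 CPM (0.39 ± 0.12), and Lss at 53.9 and 50.2 CPM against 39.8 and 37.5 CPM (0.43 ± 0.16), none with overlap. The lowest of the list was Hsd17b7, a sterol ketoreductase, at -0.03 ± 0.24 with a 95% interval of -0.58 to 0.52. Cyp51 stood at 124 and 128 CPM against 106 and 130 CPM, and overlapped.

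The fatty acid genes of cMoPs had a median log2 fold change of 0.05 on OP9-DLL1. For 3 genes the libraries were all higher and for 3 all lower than on OP9. Of all 13374 genes tested, 3349 were all higher and 2901 all lower. Fasn stood at 66.3 and 79.3 CPM on OP9-DLL1, against 83.6 and 84.8 CPM on OP9 (-0.22 ± 0.23), and Acaca at 12.1 and 10.9 CPM against 13.2 and 14.9 CPM (-0.28 ± 0.17). Scd2, at 75.1 and 94.7 CPM against 72.4 and 90.4 CPM, and Acly, at 116 and 98.6 CPM against 101 and 102 CPM, overlapped. Fads2 stood at 39.2 and 37.7 CPM on OP9-DLL1, against 28.9 and 27.3 CPM on OP9, without overlap (0.45 ± 0.24, limma adjusted p = 0.62). Scd1 stood at 1.39 and 1.37 CPM against 1.31 and 0.894 CPM.

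Levels of the regulators and transport genes in cMoPs gave no call between the stromas. Srebf1 stood at 20.3 and 20.0 CPM on OP9-DLL1 and at 18.4 and 18.2 CPM on OP9, a log2 difference of 0.14 ± 0.23 with a 95% interval of -0.38 to 0.66. Srebf2 stood at 46.8 and 52.3 CPM against 51.2 and 48.3 CPM, and its interval ran from -0.28 to 0.27. Insig1, at 28.2 and 35.6 CPM against 23.1 and 31.5 CPM, and Insig2, at 23.2 and 19.2 CPM against 20.0 and 19.7 CPM, overlapped. Scap stood at 12.0 and 10.6 CPM against 14.3 and 13.4 CPM (-0.30 ± 0.22). Npc1 stood at 4.20 and 3.85 CPM against 6.62 and 5.09 CPM, with both OP9-DLL1 libraries lower (-0.53 ± 0.20, limma adjusted p = 0.42). The 6 stromal markers summed to 2.56 and 1.03 CPM in cMoPs on OP9-DLL1 and to 0.605 and 1.52 CPM in cMoPs on OP9, with Col1a2 and Cxcl12 at 0 in OP9-DLL1 replicate 2. The cycling markers summed to 2380 and 2150 CPM on OP9-DLL1 and to 2100 and 2070 CPM on OP9. Of the 7 monocyte markers 1 passed, the chemokine receptor gene Ccr2, which was lower at 270 and 226 CPM on OP9-DLL1 against 482 and 419 CPM on OP9 (-0.86 ± 0.12, limma adjusted p = 0.017). Its call was lost without any 1 cMoP library and without either monocyte library on OP9-DLL1 (adjusted p up to 0.17). Where p was under 0.05 before adjustment, 5 of the 7 monocyte markers were lower and 1 higher, against 4.23% and 5.24% of all genes. All 6 cMoP markers had a higher mean on OP9-DLL1, against 51.2% of all genes, and none passed. For 4 of them both OP9-DLL1 libraries lay above both OP9 libraries, against 25.0% of all genes. The part of these markers in the values was not tested.

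Both OP9-DLL1 libraries lay above both OP9 libraries in cMoPs and in monocytes alike for 13 of the 18 sterol synthesis genes, 1 of the 10 fatty acid genes (Fads2), 1 of the 5 regulators (Srebf1) and 9.53% of all genes tested. The 13 were Acat2, Hmgcs1, Mvk, Mvd, Idi1, Fdps, Fdft1, Sqle, Lss, Msmo1, Nsdhl, Sc5d and Dhcr7. The difference between the responses, cMoPs minus monocytes, passed for none of the 35 genes and for 0.0523% of all genes tested. Without adjustment (p under 0.05) it was negative for 4.61% of all genes and positive for 5.18%. Of the 35 it was negative for 2, a share near that of all genes, and these were Fads2 at -1.05 ± 0.33 (limma adjusted p = 0.37) and Elovl6 at -0.64 ± 0.26 (limma adjusted p = 0.47). It was positive for 0, and by voom 0 of the 35 passed. For the 18 sterol genes the median difference was -0.15. The 95% interval for Mvd was -0.69 to 0.19 and that for Acat2 was -0.50 to 0.36. Differences of any size within those bounds remain compatible with these libraries.

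**Figure D3:**
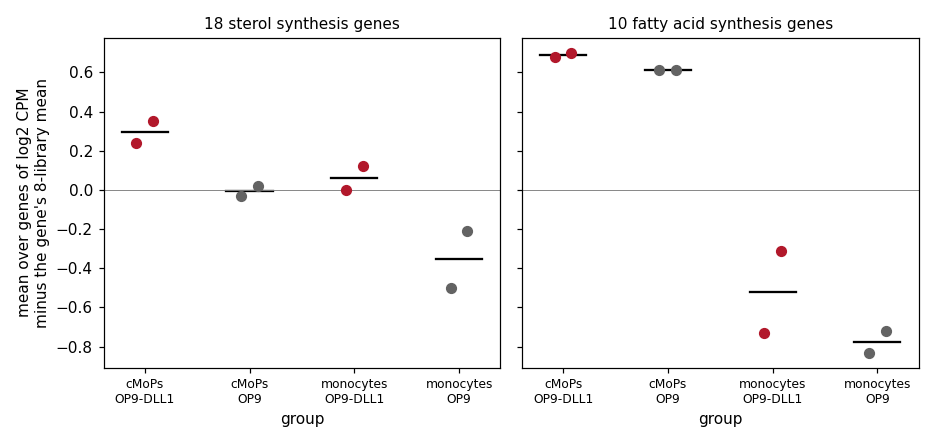
The vertical axis is the mean over a list of log2 CPM minus the 8-library mean of each gene, with 1 point per library and a line at the group mean, for the 18 sterol synthesis genes (left) and the 10 fatty acid genes (right), red for OP9-DLL1 and grey for OP9. OP9-DLL1 points lie above OP9 points for the sterol genes in both cell types, while the fatty acid genes separate cMoPs, at 0.61 to 0.70, from monocytes, at -0.83 to -0.31.

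Means over each list were set side by side. The sterol mean was 0.29 ± 0.08 in cMoPs on OP9-DLL1, 0.00 ± 0.03 in cMoPs on OP9, 0.06 ± 0.09 in monocytes on OP9-DLL1 and -0.35 ± 0.20 in monocytes on OP9 (log2 scale, SD, n = 2 each). The fatty acid mean was 0.69 ± 0.02 in cMoPs on OP9-DLL1, 0.61 ± 0.00 in cMoPs on OP9, -0.52 ± 0.30 in monocytes on OP9-DLL1 and -0.78 ± 0.08 in monocytes on OP9. The sterol mean minus the fatty acid mean was -0.39 ± 0.06 in cMoPs on OP9-DLL1, -0.61 ± 0.04 in cMoPs on OP9, 0.58 ± 0.21 in monocytes on OP9-DLL1 and 0.43 ± 0.12 in monocytes on OP9. The groups of cMoPs and monocytes did not overlap in this difference on either stroma. In monocytes its values for OP9-DLL1, 0.73 and 0.43, lay on both sides of the 0.51 of OP9 replicate 2. Scd1 counts in full in the fatty acid mean, although it had 3 and 16 reads in monocytes on OP9-DLL1 (log2 CPM -3.8 and -1.64), which widened the spread of that group. With medians over genes in place of means, the difference was 0.50 in monocytes on OP9-DLL1 and 0.36 on OP9. In cMoPs it was then -0.40 on OP9-DLL1 and -0.62 on OP9. These means describe the lists and were not tested.

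Between the cell types, 16 of the 35 genes were higher and 5 lower in cMoPs on OP9, where 28.8% of all genes were higher and 27.7% lower. On OP9-DLL1, 12 were higher and 4 lower, against 28.2% and 29.2% of all genes. Of the 10 fatty acid genes 9 were higher in cMoPs on OP9 and 8 on OP9-DLL1, and none was lower. Their median log2 fold change was 1.37 on OP9 and 0.99 on OP9-DLL1, against 0.01 and -0.01 over all genes. Both counts include Scd1, which reached the 1 CPM required for testing only in cMoP libraries. In monocytes it stood at 0.0616 to 0.311 CPM, so it entered the test only through the cell type where it was high. Of the 18 sterol genes 5 were higher and 2 lower on OP9 (median 0.16), and 3 were higher and 1 lower on OP9-DLL1 (median 0.04).

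**Figure D4:**
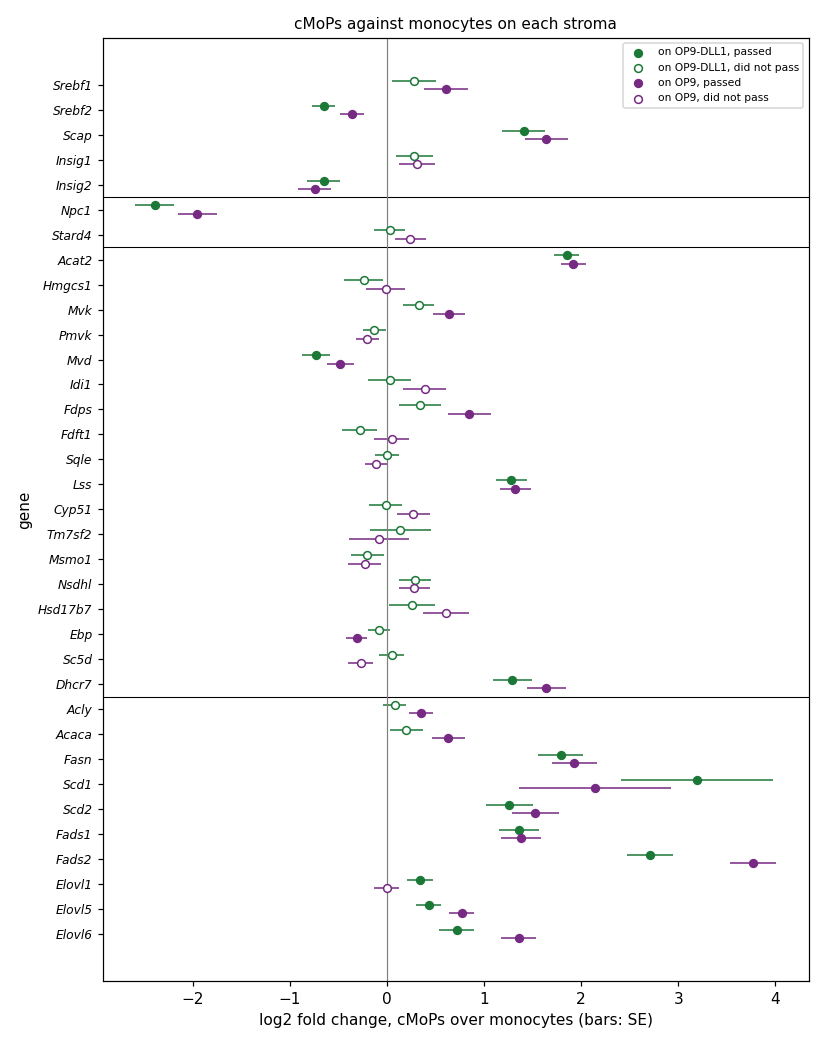
Points are log2 fold changes of cMoPs over monocytes with SE bars, on OP9-DLL1 (green, upper) and on OP9 (purple, lower), filled where the limma adjusted p was under 0.05. Fatty acid genes lie right of or at 0, up to 3.77 for Fads2 on OP9, whereas sterol genes scatter on both sides, with Acat2, Lss and Dhcr7 far to the right.

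Fads2 differed most on OP9, where it stood at 28.9 and 27.3 CPM in cMoPs, against 1.59 and 2.64 CPM in monocytes, a ratio of means of 13.3 (log2 3.77 ± 0.24, limma adjusted p = 2.9e-06). On OP9-DLL1 it stood at 39.2 and 37.7 CPM in cMoPs, against 6.03 and 5.69 CPM in monocytes, a ratio of 6.56 (2.71 ± 0.24, limma adjusted p = 1.4e-05). Fasn (chromosome 11, 120805846 to 120824547) stood at 83.6 and 84.8 CPM in cMoPs on OP9, against 21.5 and 22.5 CPM in monocytes (1.93 ± 0.23, limma adjusted p = 0.00013). On OP9-DLL1 it stood at 66.3 and 79.3 CPM in cMoPs, against 15.7 and 27.9 CPM in monocytes (1.79 ± 0.23, limma adjusted p = 0.00018). Scd2 (chromosome 19, 44293674 to 44306864) was higher in cMoPs by 1.53 ± 0.24 on OP9 and 1.26 ± 0.24 on OP9-DLL1, Fads1 by 1.38 ± 0.21 and 1.36 ± 0.21, and Elovl6 by 1.36 ± 0.18 and 0.72 ± 0.18.

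Elovl5, which elongates polyunsaturated chains, was higher in cMoPs by 0.77 ± 0.13 on OP9 and 0.43 ± 0.13 on OP9-DLL1. Acly (0.35 ± 0.12) and Acaca (0.63 ± 0.17) passed on OP9 but were not past the threshold on OP9-DLL1 (0.08 ± 0.12 and 0.20 ± 0.17), and Elovl1 passed on OP9-DLL1 (0.34 ± 0.13) and not on OP9 (0.00 ± 0.13). Elovl1 shares 53 exonic bases with Cdc20 on the other strand, and Cdc20 was higher in cMoPs by 0.98 ± 0.26 on OP9 and 0.52 ± 0.26 on OP9-DLL1. Scd1 had 87 and 49 reads in cMoPs on OP9 against 12 and 11 in monocytes (2.14 ± 0.78), and 79 and 81 in cMoPs on OP9-DLL1 against 3 and 16 in monocytes (3.19 ± 0.78). On the log2(CPM + 1) scale the Scd1 differences were 0.76 on OP9 and 1.01 on OP9-DLL1. On OP9-DLL1 the fatty acid genes higher in cMoPs numbered 5 without monocyte OP9-DLL1 replicate 1, where Elovl1, Elovl5 and Elovl6 lost their calls (limma adjusted p = 0.056 for Elovl6). Elovl5 also lost its call there without cMoP OP9-DLL1 replicate 1, and Elovl1 without any 1 of the cMoP libraries or of the monocyte OP9-DLL1 libraries. On OP9, Acaca lost its call without cMoP replicate 2 (adjusted p = 0.089), Acly without either cMoP library on OP9 or either monocyte library on OP9-DLL1 (up to 0.12), and Scd1 without any 1 library other than those of monocytes on OP9-DLL1 (up to 0.18).

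Of the sterol genes, Acat2, Lss and Dhcr7 were higher in cMoPs on both stromas. Acat2 stood at 141 and 148 CPM in cMoPs on OP9, against 40.1 and 36.2 CPM in monocytes, a ratio of 3.79 (1.92 ± 0.13, limma adjusted p = 5.2e-06), and it was higher by 1.85 ± 0.13 on OP9-DLL1. Dhcr7 (chromosome 7, 143823145 to 143848410) stood at 39.7 and 43.8 CPM in cMoPs on OP9, against 11.0 and 16.3 CPM in monocytes (1.64 ± 0.20), and was higher by 1.29 ± 0.20 on OP9-DLL1. Lss (chromosome 10, 76531588 to 76557138) stood at 39.8 and 37.5 CPM in cMoPs on OP9, against 13.4 and 17.8 CPM in monocytes (1.32 ± 0.16), and was higher by 1.28 ± 0.16 on OP9-DLL1. Mvd ran the other way, at 97.9 and 105 CPM in cMoPs on OP9 against 154 and 131 CPM in monocytes (-0.48 ± 0.14), and -0.73 ± 0.14 on OP9-DLL1. On OP9, Mvk (0.64 ± 0.16) and Fdps (0.85 ± 0.22) were also higher in cMoPs, and Ebp was lower (-0.31 ± 0.11). Without monocyte OP9 replicate 1 the log2 fold changes were 0.54 for Fdps and -0.19 for Ebp. Ebp lost its call without any 1 library other than monocyte OP9 replicate 2 (adjusted p up to 0.18), and Mvk and Mvd lost theirs on OP9 without cMoP OP9 replicate 1 (0.063 and 0.091). The number of sterol genes called higher in cMoPs changed with the library left out, on OP9 and on OP9-DLL1. The other sterol genes did not pass, among them Hmgcs1 (-0.01 ± 0.20 on OP9 and -0.24 ± 0.20 on OP9-DLL1) and Sqle (-0.11 ± 0.12 and 0.00 ± 0.12).

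The regulators split between the cell types. Scap was higher in cMoPs, at 14.3 and 13.4 CPM on OP9 against 3.76 and 5.19 CPM in monocytes (1.64 ± 0.22, limma adjusted p = 0.00023), and by 1.41 ± 0.22 on OP9-DLL1. Srebf2 was lower in cMoPs, at 51.2 and 48.3 CPM on OP9 against 61.8 and 66.2 CPM in monocytes (-0.36 ± 0.12, limma adjusted p = 0.031), and by -0.65 ± 0.12 on OP9-DLL1. Insig2 was lower by -0.74 ± 0.17 on OP9 and -0.65 ± 0.17 on OP9-DLL1. Srebf1 was higher in cMoPs on OP9 (0.61 ± 0.23, limma adjusted p = 0.047), with 0.23 when monocyte OP9 replicate 1 was left out and 0.99 when replicate 2 was, and did not pass on OP9-DLL1 (0.28 ± 0.23). That call was lost without any 1 library other than monocyte OP9 replicate 2 (adjusted p up to 0.27). The call of Srebf2 on OP9 was lost without either cMoP library on OP9, either monocyte library on OP9-DLL1 or monocyte OP9 replicate 2 (up to 0.15), and that of Insig2 on OP9-DLL1 without cMoP OP9-DLL1 replicate 2 (0.075). Srebf1 shares 109 exonic bases with Rai1 on the other strand. Insig1 did not pass on either stroma (0.31 ± 0.19 on OP9 and 0.28 ± 0.19 on OP9-DLL1).

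Npc1 had the lowest fold change of the 35 between the cell types, at 6.62 and 5.09 CPM on OP9 against 24.1 and 20.9 CPM in monocytes (-1.95 ± 0.20, limma adjusted p = 4.4e-05), and at 4.20 and 3.85 CPM on OP9-DLL1 against 22.3 and 19.8 CPM in monocytes (-2.39 ± 0.20, limma adjusted p = 1.1e-05). It shares 511 exonic bases with Rmc1 on the other strand, which was also lower in cMoPs, by -0.57 ± 0.13 on OP9. Stard4 did not pass (0.24 ± 0.16 on OP9 and 0.03 ± 0.16 on OP9-DLL1). The 7 cycling markers, of which 5 were higher in cMoPs on OP9 and 4 on OP9-DLL1, summed to 2070 to 2380 CPM in cMoPs and to 514 to 1100 CPM in monocytes, and the 6 stromal markers to 0.605 to 2.56 CPM in cMoPs and to 4.80 to 27.2 CPM in monocytes. Their part in the differences between the cell types was not tested.

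Other genes of the pathway, outside the 35, were described from fixed lists. Of 12 further sterol synthesis and uptake genes 11 were in the table. Without adjustment 3 of the 11 were higher and 3 lower in monocytes on OP9-DLL1 at p under 0.05. The shares of all genes were 11.2% and 10.6%. Their median log2 fold change was 0.09, and 1 of the 11 rose, against 3.36% of all genes. That was Aacs, the acetoacetyl-CoA synthetase, at 120 and 121 CPM on OP9-DLL1 against 61.0 and 79.7 CPM on OP9 (0.79 ± 0.15, limma adjusted p = 0.018). Its call was lost without either OP9-DLL1 monocyte library (adjusted p up to 0.13). In cMoPs none of the 11 passed, and by voom 0 did. There 1 was higher and 0 lower where p was under 0.05 without adjustment, against 5.24% and 4.23% of all genes. A higher mean on OP9-DLL1 was found for 9 of the 11, against 51.2% of all genes.

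Between the cell types, 2 of these 11 genes were higher and 4 lower in cMoPs on OP9, and 3 were higher and 4 lower on OP9-DLL1, not far from the 27.7% to 29.2% of all genes that passed in each direction. Tmem97, a regulator of NPC1 abundance, stood at 369 and 369 CPM in cMoPs on OP9, against 95.6 and 91.7 CPM in monocytes (1.98 ± 0.10). Npc2, the lysosomal partner of Npc1, was lower in cMoPs by -1.43 ± 0.19 on OP9 and -1.29 ± 0.19 on OP9-DLL1. Of 13 genes for SREBP processing and sterol sensing none passed between the stromas in either cell type, by limma or by voom. Where p under 0.05 was taken without adjustment, 0 were higher and 2 lower in monocytes, against 11.2% and 10.6% of all genes, and 0 were either in cMoPs. In monocytes Sar1a, a GTPase of vesicle budding, stood at -0.40 ± 0.11 (limma adjusted p = 0.067). On OP9 2 of them were higher and 7 lower in cMoPs, against 28.8% and 27.7% of all genes, and on OP9-DLL1 1 was higher and 5 lower, against 28.2% and 29.2%. Sec23a, a coat protein of vesicles that leave the endoplasmic reticulum, was lower in cMoPs by -1.22 ± 0.21 on OP9, and Syvn1, an endoplasmic reticulum ubiquitin ligase, by -1.01 ± 0.19.

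Of 18 other lipogenic genes 16 were in the table and none passed between the stromas in either cell type. At an unadjusted p under 0.05, 3 were higher and 1 lower in monocytes on OP9-DLL1, where 11.2% and 10.6% of all genes were. In cMoPs 1 was higher and 0 lower, against 5.24% and 4.23% of all genes. By voom 2 rose in monocytes, where 988 of the 13374 genes tested passed in either direction, and 0 passed in cMoPs. Acss2, which makes acetyl-CoA from acetate, stood at 5.38 and 7.41 CPM in monocytes on OP9-DLL1 against 1.22 and 1.41 CPM on OP9 (2.25 ± 0.57, limma adjusted p = 0.051). On each stroma 6 of the 16 were higher and 1 lower in cMoPs, against 28.2% to 28.8% and 27.7% to 29.2% of all genes. Tecr and Hacd3, which complete the elongation cycle that the ELOVL enzymes begin, were higher in cMoPs by 0.80 ± 0.16 and 1.0 ± 0.14 on OP9 and by 1.10 ± 0.16 and 1.02 ± 0.14 on OP9-DLL1. Lpin1, a phosphatidate phosphatase, was the gene that was lower (-1.14 ± 0.40 on OP9 and -1.66 ± 0.40 on OP9-DLL1). On OP9 that call was lost by voom, in the authors' deposited table, and without either cMoP library on OP9, either monocyte library on OP9-DLL1 or monocyte OP9 replicate 1 (adjusted p up to 0.15).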

How the data were processed

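RNA of 8 libraries from 4 groups was measured by sequencing of cDNA made with a SMARTer Ultra Low kit, per the labels' protocols, a kind of kit that does not mark strand. Per the submitters' processing notes, the build was mm10 and the tools were STAR 2.7.9a, Salmon 1.5.2, featureCounts 2.0.3 of Subread, bcl2fastq, limma and edgeR. The step each served was not given in the sources used here. Neither was the gene filter or the annotation release. Expression values come as 1 deposited table with the authors' log2 CPM per library and the authors' log2 fold changes and adjusted p-values, which were turned to OP9-DLL1 over OP9. Its 13430 entries hold 13388 identifiers, and 42 repeats were dropped. The values have the form of log2 CPM with 0.5 reads added and an effective library size, and whole reads were recovered for 100% of values (tolerance 0.001) and served for depth and the voom alternatives.

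The test was limma-trend (limma 3.58.1, R 4.3.3) fitted to the log2 CPM with a mean for each group, using all 8 libraries (4 residual degrees of freedom). It was two-sided, with Benjamini-Hochberg adjustment over the 13374 genes that reached 1 CPM in 2 libraries or more (14 were left out). All 35 genes passed this filter, Scd1 only through cMoP libraries. The procedure was tested on simulated data that gave every gene and group the same relative spread, whereas the spread differed between the groups here. Replicate numbers were not taken to pair libraries. No replicate pair agreed within sampling noise: chi-square divided by its degrees of freedom was 24.2 to 158.3.

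The 35 genes, the other gene lists and the markers were chosen with earlier results of these data known. All 35 are accounted for. Values by library are given for a set of regulators and rate-controlling enzymes and for part of the genes that passed without overlap. The rest of the genes that passed have a log2 fold change with SE. Of each other list up to 4 genes are named by adjusted p, or up to 2 where none passed. A few genes of those other lists and of the markers are not reported here. Gene positions and exonic lengths are from GENCODE M21 on GRCm38 (mm10), in which 13380 identifiers were found, and promoters are from RefSeq (GRCm38.p6). List means use log2 CPM minus the mean of each gene over the 8 libraries. Alternatives were median-centred libraries, no mean-variance trend, the 4 libraries of a comparison alone, voom without and with library quality weights, no filter, a filter at 5 CPM, log2(CPM + 1), a replicate block, each library left out and the authors' own values.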

Additional observations from a re-analysis of the deposited data

How the results depend on the processing

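No call of the 35 genes changed direction under any alternative. Of the 4 calls in monocytes, 0 were kept under every alternative, against 13 of 21 between the cell types on OP9 and 12 of 16 on OP9-DLL1. For OP9-DLL1 against OP9 in monocytes, 855 genes passed, against 248 without the mean-variance trend, 306 with the 4 libraries alone and 536 with weighted voom, and of the 35 genes 4 passed, against 1 with median-centred libraries, 1 without the trend, 0 with 4 libraries and 1 with weighted voom. In cMoPs 103 genes passed, against 37 without the trend, 315 with 4 libraries, 64 with voom and 268 with weighted voom, and of the 35 genes 0 passed, against 2 with 4 libraries and 2 with weighted voom. For the difference of responses 7 genes passed, against 1 without the trend and 24 on the log2(CPM + 1) scale. Over all genes tested, same-numbered libraries of different groups deviated together with correlations of 0.0227 to 0.0891, and the numbers were not taken as a pairing. The sterol mean, however, was higher in replicate 2 than in replicate 1 of every group. It was 0.35 against 0.24 in cMoPs on OP9-DLL1 and 0.02 against -0.03 in cMoPs on OP9. In monocytes it was 0.12 against 0.00 on OP9-DLL1 and -0.21 against -0.50 on OP9. Whether the numbers pair the libraries for these genes was not tested. With the replicate number as a block, 156 genes passed in cMoPs and 11 for the difference, and 6 of the 35 in monocytes. With log2(CPM + 1), the sterol mean minus the fatty acid mean was -0.28 in cMoPs on OP9-DLL1 and -0.50 in cMoPs on OP9, against -0.39 and -0.61 as deposited. In monocytes it was 0.45 on OP9-DLL1 and 0.33 on OP9, against 0.58 and 0.43. The cause of these shifts was not tested.

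With each library left out in turn, 164 to 2488 genes and 0 to 18 of the 35 passed in monocytes, 31 to 308 and 0 to 1 in cMoPs, 0 to 1124 and 0 to 5 for the difference, 5500 to 7807 and 14 to 24 between the cell types on OP9, and 5956 to 8598 and 13 to 18 on OP9-DLL1. The sterol minus fatty acid difference ran from -0.44 to -0.35 in cMoPs on OP9-DLL1, -0.64 to -0.59 in cMoPs on OP9, 0.43 to 0.73 in monocytes on OP9-DLL1 and 0.34 to 0.51 in monocytes on OP9. With 2 libraries a group, small differences were not detectable, and Scd1 in monocytes rests on 3 to 16 reads a library.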

Other observations

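Genes of the oxysterol receptors LXR and of cholesterol efflux and storage, which act opposite to the SREBP pathway in sterol balance, were followed as a further list of 11 genes, of which 10 were in the table. In monocytes 1 rose on OP9-DLL1 and 0 fell, against 3.36% and 3.03% of all genes. By voom 3 rose and 0 fell, where 988 of the 13374 genes tested passed in either direction. Without adjustment 3 were higher and 0 lower at p under 0.05, against 11.2% and 10.6% of all genes. The gene that rose was Nr1h3, which encodes LXR alpha, at 131 and 107 CPM on OP9-DLL1 against 19.2 and 9.34 CPM on OP9, without overlap (log2 3.15 ± 0.43, limma adjusted p = 0.0044). It passed under all 18 alternatives run for it. In cMoPs Nr1h3 stood at 9.98 and 9.58 CPM on OP9-DLL1 against 7.28 and 2.85 CPM on OP9, and none of the 10 passed there (0 by voom, with 2 higher and 0 lower where p was under 0.05 without adjustment, against 5.24% and 4.23% of all genes).

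Between the cell types, 8 of the 10 were lower in cMoPs on OP9 (median log2 -2.23) and 8 on OP9-DLL1 (median -3.15), and none was higher, with or without adjustment, where 27.7% and 29.2% of all genes were lower by adjusted p. Abca1, of this list, reached the 1 CPM required for testing only in monocytes on OP9 (1.69 and 1.58 CPM). Abcg1, a cholesterol efflux transporter, stood at 4.94 and 5.11 CPM in cMoPs on OP9 against 257 and 102 CPM in monocytes (-5.01 ± 0.37), and at 3.51 and 5.5 CPM in cMoPs on OP9-DLL1 against 220 and 210 CPM in monocytes (-5.61 ± 0.37). Apoe, the lipid-carrying apolipoprotein that macrophages secrete, stood at 1.84 and 2.21 CPM in cMoPs on OP9 against 42.7 and 47.1 CPM in monocytes (-4.47 ± 0.40). Rxra, the partner receptor of LXR, was lower in cMoPs by -3.07 ± 0.26 on OP9, as was Soat1, which esterifies cholesterol for storage, by -0.97 ± 0.14. On OP9-DLL1 Cyp27a1, which makes an oxysterol, was lower by -4.51 ± 0.49. The stromal markers, at 0.605 to 2.56 CPM in cMoPs and 4.80 to 27.2 CPM in monocytes, moved with these differences, and their part in them was not tested.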
